A study of Mus musculus with 2 samples.

Results

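Chitinase-like and resistin-like proteins are small families of secreted proteins made by myeloid cells, and 5 of their genes (Chil1, Chil3, Chil4, Retnla and Retnlg) are described here out of 54751 genes in the deposited count table. They were chosen by family membership with the mrWNT2 over vehicle count ratios of these same libraries already known, and were taken by gene name, so the values below are a description and carry no test. The cells were MDSCs (myeloid-derived suppressor cells), a mixture of immature monocytic and granulocytic cells that dampen T cell responses, grown from the bone marrow of mice labelled WT. One library came from a culture that received mrWNT2 (WNT2 is a secreted signalling protein of the WNT family) on day 0 and day 3, and the other from a culture that received vehicle on the same days. Both were collected on day 6, and the labels give neither the dose nor the cytokines of the culture medium. The mrWNT2 library held 12621110 counts and the vehicle library 13474453. With 1 library per group there was no replicate check, and every interval is a 95% counting interval that compares the 2 libraries, not the conditions.

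Chitinase-like proteins share the fold of enzymes that cut chitin but lack the catalytic activity, and act instead as sugar-binding proteins. Chil3 encodes Ym1, which crystallises in inflamed mouse lung and is made by alternatively activated macrophages and by granulocyte precursors of the bone marrow. Chil4 encodes its near copy Ym2, and Chil1 encodes BRP-39, the mouse counterpart of human YKL-40. Resistin-like proteins are cysteine-rich, hormone-like molecules. Retnla encodes RELM-alpha (FIZZ1), a textbook product of macrophages exposed to IL-4 or IL-13 acting through the transcription factor STAT6, and Retnlg encodes RELM-gamma, which is known from mouse bone marrow and neutrophils.

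The promoters of the members are shown first, because the closest pairs by sequence were far apart in level or in ratio. All 5 were matched by symbol to RefSeq promoters (GRCm38.p6), each running from 250 bases before to 50 bases after the annotated start. For Retnla (chr16:48842359-48842658, plus strand) and Retnlg (chr16:48872358-48872657, plus strand) the capitals mark a match to the STAT6 motif, TTC and GAA with any 4 bases between them.
Retnla: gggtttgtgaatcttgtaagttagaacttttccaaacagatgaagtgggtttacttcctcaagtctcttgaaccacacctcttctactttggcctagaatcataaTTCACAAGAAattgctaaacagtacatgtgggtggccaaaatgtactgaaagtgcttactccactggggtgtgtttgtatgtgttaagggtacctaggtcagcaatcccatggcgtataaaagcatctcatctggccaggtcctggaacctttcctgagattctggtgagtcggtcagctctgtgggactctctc
Retnlg: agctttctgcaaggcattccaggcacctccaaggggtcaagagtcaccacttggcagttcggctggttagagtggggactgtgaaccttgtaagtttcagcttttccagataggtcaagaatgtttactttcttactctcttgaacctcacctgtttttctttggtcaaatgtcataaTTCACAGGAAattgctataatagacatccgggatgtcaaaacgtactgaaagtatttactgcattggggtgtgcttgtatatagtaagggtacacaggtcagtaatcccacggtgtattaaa
The match began 145 bases before the RefSeq start of Retnla and 72 bases before that of Retnlg, whose RefSeq start lies further upstream in the alignment. The gene starts of the count table, 48842551 for Retnla and 48872621 for Retnlg, differ from these RefSeq starts. Both distances therefore depend on the annotation used. The 2 promoters were 77.4% identical over 226 aligned bases. Of 32851 promoters of that length, 6.95% hold this motif on either strand, and it was not found in these windows of Chil1, Chil3 or Chil4. Only the spacing of 4 bases between TTC and GAA was searched. The Chil3 and Chil4 windows both hold ttcttagaa, in which TTC and GAA stand closer together. The share of promoters with that spacing was not counted. A shorter C/EBP motif, TTNCNNAA, was found on either strand in all 5 windows but also in 40.7% of all promoters. The PU.1 motif GAGGAA was found in the Retnla window and in 28.3% of all promoters, and there it overlapped a C/EBP match. A match describes letters in a window and is not evidence of binding.

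For Chil3 (chr3:106167515-106167814, minus strand) and Chil4 (chr3:106219430-106219729, minus strand) the capitals mark the bases at which the aligned sequences differ, which were 20 substitutions and 2 bases in internal gaps.
Chil3: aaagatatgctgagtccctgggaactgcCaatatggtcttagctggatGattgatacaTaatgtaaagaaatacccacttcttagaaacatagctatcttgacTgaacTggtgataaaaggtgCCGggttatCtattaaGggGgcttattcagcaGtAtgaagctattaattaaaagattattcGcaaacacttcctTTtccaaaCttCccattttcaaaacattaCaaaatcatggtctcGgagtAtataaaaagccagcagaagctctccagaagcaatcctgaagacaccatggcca
Chil4: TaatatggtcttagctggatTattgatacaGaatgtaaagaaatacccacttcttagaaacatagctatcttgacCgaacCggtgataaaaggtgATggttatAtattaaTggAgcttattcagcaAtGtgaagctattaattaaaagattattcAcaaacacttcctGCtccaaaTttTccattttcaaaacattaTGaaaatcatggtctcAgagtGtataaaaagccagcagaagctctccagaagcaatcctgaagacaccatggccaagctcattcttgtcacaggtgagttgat
These promoters were 92.6% identical over 271 aligned bases, and the full-length coding transcripts of the 2 genes were 94.4% identical over 1538. The 2 genes are neighbours on chromosome 3, with 33.9 kb between them.

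Levels of different genes are compared in FPKM, the deposited value scaled to gene length. Chil3 (ENSMUSG00000040809, chromosome 3, 106147554 to 106167564, 11 exons) stood at 25570 FPKM in the mrWNT2 library and 31469 FPKM in the vehicle library. In both it ranked 2 among all genes, behind S100a9, and it made up 99.1% of the summed FPKM of the members in the mrWNT2 library and 98.1% in the vehicle library. Retnlg (ENSMUSG00000022651, chromosome 16, 48872621 to 48874496, 4 exons) came next, at 146 FPKM with mrWNT2 and 457 FPKM with vehicle. Chil1 (ENSMUSG00000064246, chromosome 1, 134182176 to 134190181, 10 exons) had 76.3 FPKM with mrWNT2 and 102 FPKM with vehicle. Retnlg exceeded Chil1 by 1.91-fold in the mrWNT2 library and by 4.50-fold in the vehicle library. Taken per length of the coding transcript, 1839 bases for Chil1 where the deposited length is 2804, these folds were 1.25 with mrWNT2 and 2.95 with vehicle.

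Retnla (ENSMUSG00000061100, chromosome 16, 48842551 to 48844461, 4 exons) had 4.28 FPKM with mrWNT2 and 54.9 FPKM with vehicle. Its rank among all genes was 7418 in the mrWNT2 library and 810 in the vehicle library, the widest shift of the 5. Retnlg ranked 245 with mrWNT2 and 57 with vehicle, and Chil1 ranked 532 with mrWNT2 and 387 with vehicle. Chil4 (ENSMUSG00000063779, chromosome 3, 106201490 to 106219507, 11 exons) was the lowest in both libraries, at 0.966 FPKM with mrWNT2 and 0.510 FPKM with vehicle. The deposited length of Chil4, 2817 bases, exceeds that of its 1539-base coding transcript, at which its level would be 1.77 FPKM with mrWNT2 and 0.934 FPKM with vehicle. The order of the 5 levels was the same in both libraries, also when each level was taken per length of the coding transcript, and without replicates the spread around it is unknown. None of the members overlaps another gene of the table (0 overlapping genes), so no annotated antisense partner shares their reads.

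**Figure D1:**
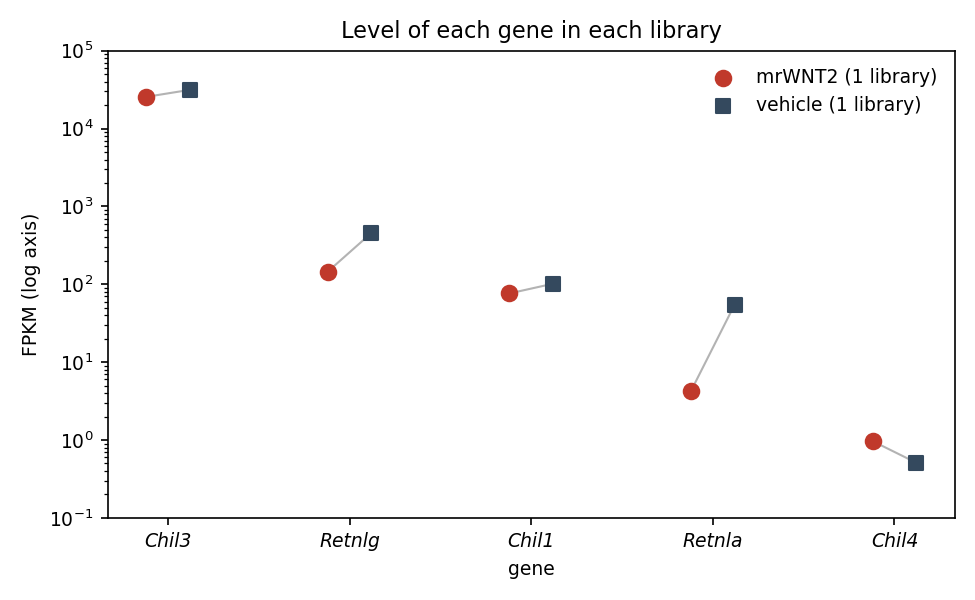
FPKM (log axis) of the 5 genes in the mrWNT2 library (circles) and the vehicle library (squares), 1 library each. The levels run from 0.510 FPKM for Chil4 to 31469 FPKM for Chil3, both with vehicle, and the steepest line is that of Retnla.

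The resistin-like genes were both lower in the mrWNT2 library, and the chitinase-like genes were close to their vehicle level or, for Chil4, higher from few reads. Retnla had 33 counts with mrWNT2 and 435 with vehicle, a log2 ratio of -3.65 (interval -4.21 to -3.14). Retnlg had 1113 counts with mrWNT2 and 3586 with vehicle, a log2 ratio of -1.62 (-1.71 to -1.52). Both ratios lay outside the range that held most genes, since 90% of the 12856 measured genes had a log2 ratio between -0.71 and 0.78. A gene was called measured where its 2 libraries averaged 1 CPM or more, CPM being the count relative to the scaled library total. In bulk RNA, fewer cells of a type and less RNA per cell cannot be told apart.

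The 2 resistin-like genes also differed from each other. Retnla was lower relative to Retnlg by 4.09-fold (2.85 to 5.87) between the libraries, so that Retnlg exceeded Retnla by 34.1-fold in FPKM with mrWNT2 and by 8.33-fold with vehicle. From the lowest ratio upward, Retnla had rank 9 and Retnlg rank 77 of the 12856 measured genes. Over 1 pair of libraries, and among protein-coding genes that averaged 10 CPM or more (Gm and Rik models left out), the gene with the ratio nearest to Retnla was the chemokine gene Ccl8, whose log2 ratio of -4.04 differed by 0.39. The next were Svep1, Ifit1bl2 and Mpzl2, which differed by 1.26, 1.65 and 1.74. Retnla and these 4 genes averaged 10 CPM only through the vehicle library, and the choice of minimum decides which genes are near: the macrophage gene Cd5l, which averaged 8.47 CPM, had a log2 ratio of -4.22. Nearest to Retnlg was the mannose receptor gene Mrc1, with a log2 ratio of -1.62 that differed by 0.0041. It was followed by the chemokine gene Ccl2, the fatty acid binding protein gene Fabp5 and the platelet factor 4 gene Pf4, which differed by 0.13, 0.15 and 0.15.

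Chil1 had 2754 counts with mrWNT2 and 3772 with vehicle, a log2 ratio of -0.38 (-0.45 to -0.31), which is 1.30-fold lower. Chil3 had 536890 counts with mrWNT2 and 678845 with vehicle, a log2 ratio of -0.27, a ratio of 0.832 (0.829 to 0.835). The ratio of Chil1 relative to Chil3 was 1.08-fold lower (1.03 to 1.14) in the mrWNT2 library, so the abundant chitinase-like genes had nearly equal ratios, and 12.5% of measured genes had a lower ratio than Chil1 and 18.2% a lower one than Chil3. The narrow interval of Chil3 comes from its depth and leaves out the choice of scaling, under which its log2 ratio ran between -0.32 and -0.24. Retnlg, in contrast, was lower relative to Chil3 by 2.55-fold (2.38 to 2.73) and relative to Chil1 by 2.35-fold (2.16 to 2.56).

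Chil4 had 35 counts with mrWNT2 and 19 with vehicle, a log2 ratio of 0.95 (0.11 to 1.84). It was the only one of the 5 with a higher value in the mrWNT2 library. Its counts were 6.52 per 100000 Chil3 counts with mrWNT2 and 2.80 with vehicle, and Chil3 exceeded it by 26478-fold in FPKM with mrWNT2 and by 61671-fold with vehicle. Per length of the coding transcripts these folds were 15340 with mrWNT2 and 35729 with vehicle, and all of them rest on the few Chil4 counts. Of the 50-base windows of the Chil4 transcript, 20.4% occur unchanged in a transcript of Chil3 or of the pseudogene Gm6522, against 3.75% of 100-base windows and 0% of 150-base windows. Of the Chil3 transcript, 29.4% of 50-base, 5.42% of 100-base and 0% of 150-base windows occur in a transcript of Chil4 or Gm6522. The sources used here do not state whether reads that map to several places were counted, and how many Chil4 counts came from Chil3 reads was not tested. The same limit holds for the level of Chil3 and for the folds between Chil3 and Chil4. Gm6522, named after its values were seen, had 454 counts with mrWNT2 and 712 with vehicle. No window of 50 bases or longer from the Chil1, Retnla or Retnlg transcript occurs in a transcript of another gene (0% at each length), although the transcripts of Retnla and Retnlg were 84.5% identical over 587 aligned bases.

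All 5 members exceeded a mean of 1 CPM, and each did so in both libraries. At least 2-fold lower in the mrWNT2 library were 2 of the 5 (Retnla and Retnlg), where the share over all 12856 measured genes was 2.49%, and 0 of the 5 were at least 2-fold higher, where that share was 3.38%. In either direction the share over all genes was 5.87%. The median log2 ratio of the members was -0.38, and that of all measured genes was 0.02. Because the genes were picked with this contrast in view, nothing is read from these counts.

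**Figure D2:**
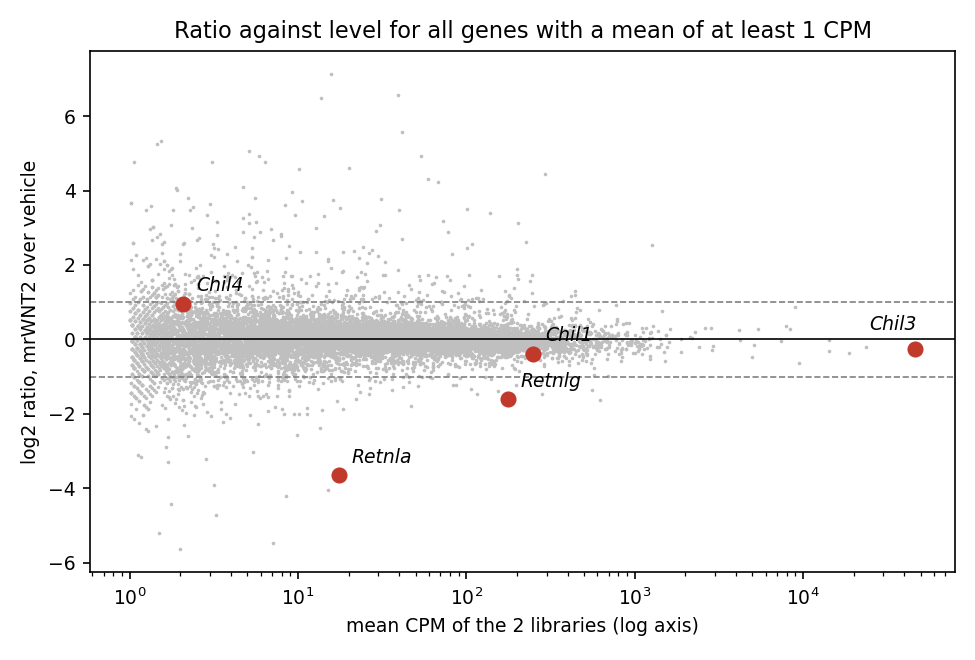
Each grey point is 1 of the 12856 measured genes, with the mean CPM of the 2 libraries on the x axis (log) and the log2 ratio of mrWNT2 over vehicle on the y axis. Dashed lines mark 2-fold, and Retnla (-3.65) and Retnlg (-1.62) lie below the lower one while Chil1 (-0.38), Chil3 (-0.27) and Chil4 (0.95) lie between them.

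The remaining genes of the families were weakly expressed. Of all 12856 measured genes, 2.49% were at least 2-fold lower and 3.38% at least 2-fold higher, the shares to set beside each list count below. Of 10 chitinase family genes 8 were measured, 2 of them past 2-fold downward and 0 upward, with a median log2 ratio of -0.21. The lower ones were Chil5, with 44 counts with mrWNT2 and 97 with vehicle (-1.07, -1.62 to -0.54), and Chit1, with 16 counts with mrWNT2 and 41 with vehicle (-1.28, -2.22 to -0.42). Chit1 encodes chitotriosidase, an active chitinase of phagocytes, and lies beside Chil1 with 30.6 kb between them. The lysosomal chitobiase gene Ctbs had a log2 ratio of -0.15 (-0.39 to 0.09), the oviductal glycoprotein gene Ovgp1 of -0.11 (-1.01 to 0.77), and Chid1 of 0.32 (0.09 to 0.55). Chia1, which encodes the acidic mammalian chitinase, had 0 counts with mrWNT2 and 1 with vehicle, and Chil6 had 3 with mrWNT2 and 1 with vehicle, so neither was given a ratio.

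Of the 4 resistin family genes 3 were measured, 2 of them lower and 0 higher, with a median of -1.62. Retn, which encodes resistin, an adipocyte hormone in mice, had 13 counts with mrWNT2 and 16 with vehicle, and its log2 ratio of -0.23 had an interval of -1.40 to 0.92. Retnlb, known from goblet cells of the gut, had no reads in either library. A count of 0 allows a level of up to 0.236 CPM with mrWNT2 and 0.224 CPM with vehicle. Retnlb was thus at the detection limit, while Retn averaged 1.11 CPM, just above the minimum of 1 CPM.

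**Figure D3:**
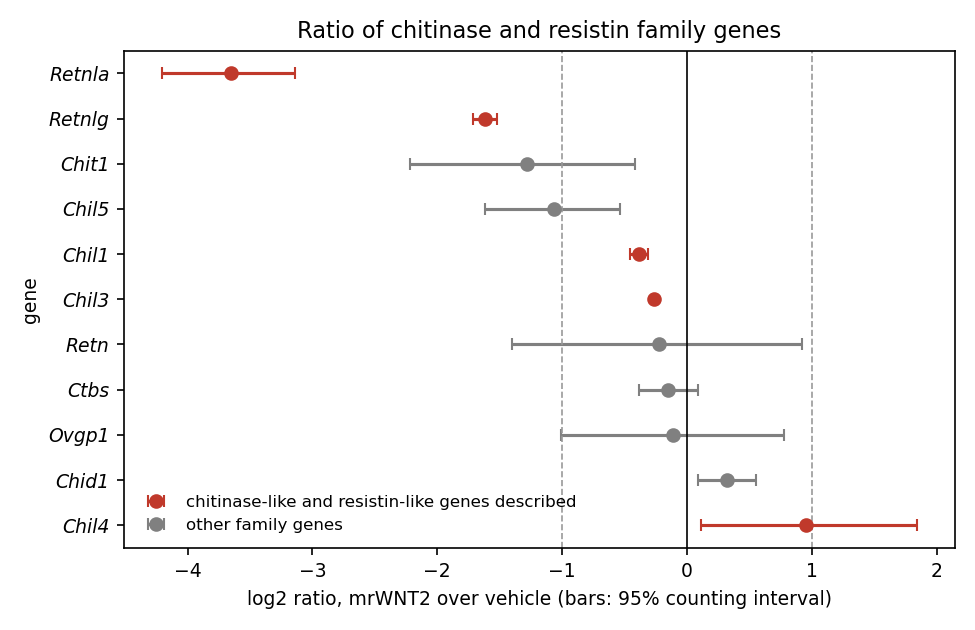
Log2 ratio of mrWNT2 over vehicle for the 11 family genes that could be given a ratio, with 95% counting intervals (1 library per group) and dashed lines at 2-fold. The intervals of Retnla and Retnlg lie wholly below -1, and that of Chil4 runs from 0.11 to 1.84.

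Retnla and Retnlg sit 28.2 kb apart on chromosome 16, on the plus strand, beside Retnlb. Of the protein-coding genes on each side, Retnlb, Trat1, Morc1 and Myh15 had 0 counts in both libraries. The flanking genes that were measured, Dzip3 and Cip2a, had log2 ratios of 0.24 (-0.08 to 0.57) and 0.09 (-0.05 to 0.23). The low values of the resistin-like pair were therefore not shared by the measured genes next to them, whose intervals included 0. Around Chil3 and Chil4, Dennd2d had a log2 ratio of -0.31 (-0.50 to -0.13) and Cept1 of 0.02 (-0.11 to 0.15), and Pifo had 0 counts with mrWNT2 and 1 with vehicle. Next to Chil1 on one side lay Chit1, with a log2 ratio of -1.28 (-2.22 to -0.42) from 16 counts with mrWNT2 and 41 with vehicle. The growth regulator gene Btg2 lay beyond it, 103 kb from Chil1, and had a log2 ratio of -0.43 (-0.54 to -0.33). Fmod, Adora1 and Myog had 0 counts in both libraries, and Mybph had 3 with mrWNT2 and 2 with vehicle.

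For the pathway that induces Retnla and Chil3 in macrophages, transcripts of its ligands, receptors and kinases were measured. Of 15 genes of IL-4 and IL-13 signalling 14 were measured, with a median of 0.08. Past 2-fold upward were 2 (share over all measured genes 3.38%) and past 2-fold downward 0 (2.49%). The receptor gene Il4ra had 53.8 FPKM with mrWNT2 and 63.8 FPKM with vehicle (log2 ratio -0.21), and Stat6 had 62.0 FPKM with mrWNT2 and 74.3 FPKM with vehicle (-0.23). These are transcript levels, not signalling activity, and the part of this pathway in the value of Retnla was not tested. The common gamma chain gene Il2rg (1.06, 0.90 to 1.23) and the feedback inhibitor gene Socs3 (1.44, 1.31 to 1.57) were the higher ones, Jak3 had 0.99 (0.81 to 1.18), and Tyk2 had 0.27. The ligand genes were barely detected, Il4 with 16 counts with mrWNT2 and 14 with vehicle and Il13 with 8 counts with mrWNT2 and 9 with vehicle.

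Of 16 genes listed as transcription factors or cofactors for the members all were measured, with a median of -0.09. Past 2-fold upward was 1 (share over all measured genes 3.38%) and past 2-fold downward were 0 (2.49%). The gene past 2-fold upward was the coactivator gene Ppargc1b, with 76 counts with mrWNT2 and 23 with vehicle. Motifs were searched for STAT6, C/EBP and PU.1 alone, and whether the listed factors act on the promoters of the members was not tested. Cebpe, which encodes the C/EBP factor of late granulocyte maturation, had 86.3 FPKM with mrWNT2 and 119 FPKM with vehicle (-0.43, -0.53 to -0.33). Cebpb was at 0.12 (0.02 to 0.21), Cebpa at -0.28, the histone demethylase gene Kdm6b at -0.35 and Irf4 at 0.75 (0.48 to 1.01). Of 10 proposed receptors and binding partners of these proteins 7 were measured, with 0 at least 2-fold different and a median of -0.20. Lgals3, which encodes galectin-3, was at -0.36, Tmem219, which encodes a proposed receptor subunit for the Chil1 protein, at -0.28, Tlr4 at -0.28 and Cd44 at -0.20. Il13ra2, whose product is a proposed receptor for the Chil1 protein, and Ptgdr2 had 0 counts in both libraries.

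Retnla and Chil3 are both used as markers of alternative activation, yet their log2 ratios, -3.65 and -0.27, were far apart. Of 24 other genes of that programme 22 were measured, with a median of -0.44. Past 2-fold downward were 6 (share over all measured genes 2.49%) and past 2-fold upward 3 (3.38%). The arginase gene Arg1 was at -1.44, Mrc1 at -1.62 and the beta-glucan receptor gene Clec7a at -1.60, while the arginine transporter gene Slc7a2 was at 2.63 and the chemokine gene Ccl22 at 2.33. Retnla lay below every measured gene of that list. Granule genes of maturing neutrophils, with which Chil3, Chil1 and Retnlg are often found, were 20 of 20 measured, with a median of -0.42. At least 2-fold lower was 1 (share over all measured genes 2.49%) and at least 2-fold higher were 0 (3.38%). Ly6g, the one at least 2-fold lower, had 1098 counts with mrWNT2 and 2315 with vehicle. The gelatinase gene Mmp9 was at -0.99, Ifitm6 at -0.70 and the haptoglobin gene Hp at 0.77. Chil1 and Chil3 lay within the range of the granule list and Retnlg lay below all of it. These lists share Mrc1, Cd163, Itgam and Ly6g with the marker lists below, and were written with earlier results of these data known.

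**Figure D4:**
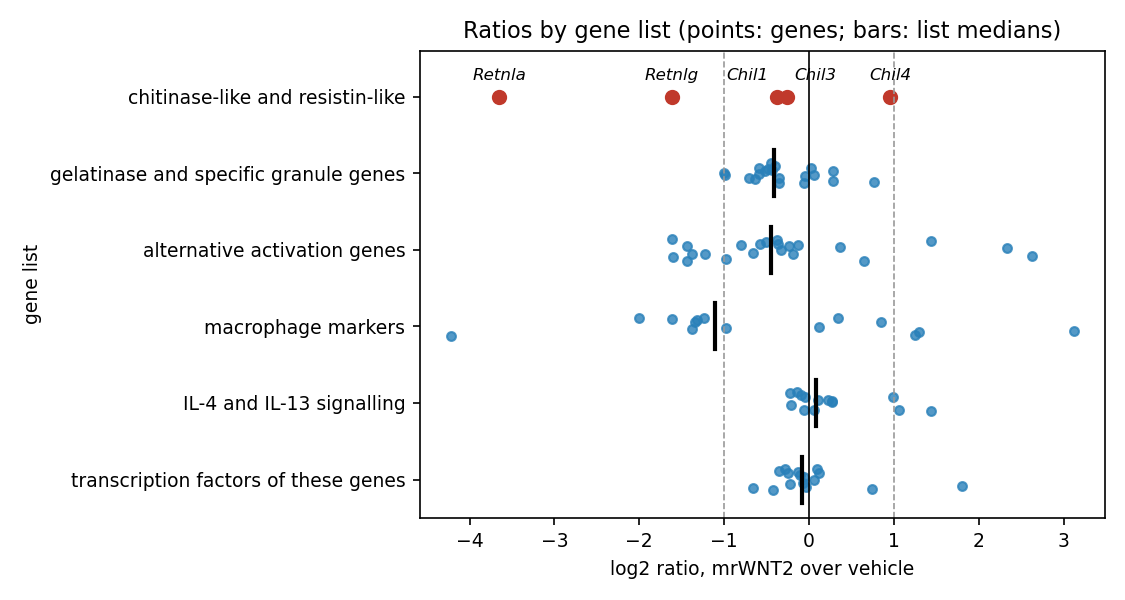
Log2 ratio of mrWNT2 over vehicle for the 5 genes (top row) and for the measured genes of 5 lists, 1 point per gene, with a black bar at each list's median. The medians are -0.42 for granule genes, -0.44 for alternative activation, -1.11 for macrophage markers, 0.08 for IL-4 and IL-13 signalling and -0.09 for transcription factors.

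Markers of the cell types that could make these proteins were set beside the members. Of 16 macrophage markers 14 were measured, with a median of -1.11. Past 2-fold downward were 7 (share over all measured genes 2.49%) and past 2-fold upward 3 (3.38%). The summed level of the macrophage markers was 1132 FPKM with mrWNT2 and 1288 FPKM with vehicle, and Timd4 had 0 counts in both libraries. Cd5l, which encodes a secreted protein of tissue macrophages, lay below Retnla at -4.22 (-5.24 to -3.35), from 11 counts with mrWNT2 and 215 with vehicle. The complement receptor gene Vsig4 had 19 counts with mrWNT2 and 80 with vehicle. Cd163 was at -1.38 and Apoe at -1.35. The 3 markers past 2-fold upward were the scavenger receptor gene Marco at 3.12, Lpl at 1.29 and Csf1r at 1.25. The 4 within 2-fold were Adgre1 at 0.84, Cd68 at 0.34, Mertk at 0.11 and C1qa at -0.98. The part of these markers in the low values of Retnla and Retnlg was not tested. MDSC and granulocyte markers were all detected (10 of 10), with a median of -0.13. At least 2-fold lower was 1 (share over all measured genes 2.49%) and at least 2-fold higher were 0 (3.38%). Their summed level was 60801 FPKM with mrWNT2 and 73520 FPKM with vehicle. Most of it came from S100a9 (41657 FPKM with mrWNT2, 49131 FPKM with vehicle) and S100a8 (17928 FPKM with mrWNT2, 22960 FPKM with vehicle). Among the granulocyte markers S100a8 was at -0.32, Mpo at -0.25 and S100a9 at -0.20. None of the granulocyte markers was at 0, and all but Ly6g were within 2-fold. Their part in the values of Retnlg, Chil1 and Chil3 was not tested.

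Eosinophils of mice also make chitinase-like proteins, and basophils, mast cells and dendritic cells can arise in cultures of bone marrow. Of 9 eosinophil markers all were measured, with 0 at least 2-fold different, a median of -0.19 and a summed level of 1612 FPKM with mrWNT2 and 1741 FPKM with vehicle. Ear2, Ear6 and Ear1 were at -0.56, -0.42 and -0.29, and the eosinophil peroxidase gene Epx was at 0.40. Of 8 basophil and mast cell markers 7 were measured, with 0 at least 2-fold different, a median of 0.04, a summed level of 171 FPKM with mrWNT2 and 182 FPKM with vehicle, and Mcpt4 at 0 counts in both libraries. Cpa3 was at -0.43, Hdc at 0.27, Gata2 at 0.10 and Mcpt8 at 0.06. Of 8 dendritic cell markers 3 were measured, with 0 at least 2-fold different and a median of -0.20, and Itgax was at -0.20. Their summed level was 9.45 FPKM with mrWNT2 and 10.1 FPKM with vehicle, with Siglech at 0 counts in both libraries and Cd209a at 0 with mrWNT2.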

How the data were processed

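RNA-seq was measured in 2 libraries, 1 per group. The authors deposited raw counts per gene and FPKM, which per the values scales counts to gene length and to DESeq2 size factors. Per the submitters' processing notes, the tools were HISAT2 2.0.5, featureCounts 1.5.0-p3, DESeq2 1.20.0, fastp and CASAVA 1.8, and the genome build was GRCm38 (mm10). Strand setting, read length and the treatment of reads that map to several places are not given in the sources used here. The libraries held 12621110 counts (mrWNT2) and 13474453 (vehicle). Counts were scaled with TMM in edgeR 4.0.16 (R 4.3.3). Per gene a log2 ratio was computed with no pseudocount and an exact 95% Clopper-Pearson interval, which covers counting error alone, and PCR copies were not removed by molecular identifiers. A count of 0 was set to 3 counts, and no ratio was given where both counts were at or under 3. No test and no p-value was possible. A gene was measured where its 2 libraries averaged 1 CPM or more. Transcripts of GENCODE M21 and promoters were compared with Biopython 1.88. The script for ratios was tested on simulated data.

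Genes named were the members, their families and neighbours (3 each side), the 4 genes nearest in ratio, and of each list the up to 4 largest ratios with a mean of at least 10 CPM, plus Stat6, Il4ra, Cebpe, Cebpb and Arg1. Other genes named were chosen after their values were seen. Members and the 12 lists were chosen with earlier results of these data known. Alternatives covered the scaling, the FPKM values, a prior of 1 CPM, the fold, the expression minimum, and Chil3 and Chil4 summed.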

Additional observations from a re-analysis of the deposited data

How the results depend on the processing

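No paired analysis was possible because each group has 1 library, and no library could be left out. Retnla, Retnlg, Chil1 and Chil4 stayed within their counting intervals under every scaling, under the authors' FPKM and with a prior of 1 CPM. The log2 ratio of Chil3 was -0.24 with library totals, -0.30 with DESeq2 size factors and with the authors' FPKM, -0.32 with upper-quartile scaling and -0.26 with totals that leave out Chil3, so it was negative throughout but moved by more than its counting error. With Chil3 and Chil4 summed the ratio was -0.27, against 0.95 for Chil4 alone, because Chil3 supplies nearly all the reads. The number of members at least 2-fold different was 2 under every scaling. At 1.5-fold it was 3, where the share of all measured genes was 14.6%, at 3-fold it was 2 (2.17%), and with the interval wholly past 2-fold it was 2 (2.11%). The share of all genes at least 2-fold different was 2.52% at a mean of at least 10 CPM and 13.5% with no minimum. At a mean of at least 10 CPM, 0 chitinase family genes and 0 transcription factor genes were at least 2-fold different, and with no minimum 1 binding partner gene was (Dcn, 15 counts with mrWNT2 and 2 with vehicle). With library totals, 0 granule genes and 0 granulocyte markers were, since Ly6g then fell just short of 2-fold. Library totals also put 3 genes of IL-4 and IL-13 signalling past 2-fold upward, against 2. Of macrophage markers, 10 were at least 2-fold different in the main setting, 11 with no minimum and 8 at a mean of at least 10 CPM. Of alternative activation genes, 8 were at a mean of at least 10 CPM, against 9. The cause of the scaling differences was not tested. Depth limits Chil4, Chil5, Chit1, Ovgp1 and Retn, each with under 100 counts per library. It also limits Retnla, whose mrWNT2 level, rank and folds rest on 33 counts. Nothing here measures variation between cultures.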
